A study of Drosophila melanogaster with 3 samples.

Results

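The gene lola (FlyBase ID FBgn0005630) was followed through 3 libraries of called Aubergine (Aub) crosslink intervals, and its members were all intervals that the deposited files assign to that ID, 90 of 51962 in all. Replicate 1 held 18 of its 4007 intervals in lola, replicate 2 held 47 of 36157 and replicate 3 held 25 of 11798. The gene was chosen by its number of called intervals, which was known to be high, so that number and its rank are a description and support nothing further. Where along the gene the intervals lie did not enter the choice. A gene with many intervals can more readily have intervals of several libraries close together, so the choice does bear on recurrence.

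The libraries form 1 group and no control library was analysed here. All 3 came from cultured germline stem cells (GSCs) that carry 1 copy of the transgene UASp-GFP-aub and, on the bam chromosomes, bam∆86hs-bam over nos-gal4 bam∆86, with no drug treatment. In these cells the germline driver nos-gal4 expresses a GFP-tagged Aub beside the cells' own, both bam copies carry the bam∆86 allele, and a heat-shock bam transgene is present. In iCLIP, an immunoprecipitation method that resolves single nucleotides, ultraviolet light (here 150 mJ/cm2 at 254 nm) links RNA covalently to a bound protein, the protein is pulled down and the linked RNA is sequenced. Whether each library had a culture of its own is not stated, and the variation among them may be technical. Of 13 germline and somatic gonad marker genes listed to check the labelled cell type, 0 could be paired with an ID of the files, so that check was not possible.

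lola encodes a family of transcription factors that share an N-terminal BTB domain, a protein interaction module, and mostly end in different zinc fingers that contact DNA. The shared part is encoded by exons at the 5′ side of the gene and the variable part by alternative 3′ exons, which are joined to the common part by splicing, in some cases between 2 separate transcripts of the locus (trans-splicing). The gene is known for axon guidance, and its products also act in the germline, including in maintaining stem cells of the testis and in cell death of the ovary. Aub belongs to the Piwi branch of the Argonaute proteins and binds piRNAs, small RNAs that silence transposons in the germline. The RefSeq table of the Release 6 assembly lists 25 transcripts and 25 proteins for lola, which places it at rank 6 by number of transcripts, against a median of 2 transcripts over 13951 protein-coding genes. In that table lola lies on 2R and is 61398 nt long. The files use the older build dm3 and no exon of that build was used here, so the exon that each interval falls in was not analysed here. Sequences of the sites are not shown.

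All lola intervals lay on the minus strand of 2R, so that the 5′ end of the gene has the higher coordinates. Positions are 1-based on dm3. The intervals spanned 55816 nt, from position 6430744 at the 5′ side to position 6374929 at the 3′ side. In replicate 1 they ran from 6430608 to 6392534, in replicate 2 from 6430744 to 6374929 and in replicate 3 from 6430518 to 6375171. The 5′ limits thus lay close together in the 3 libraries, whereas replicate 1 had no interval in the last stretch of the gene.

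The share of a library's intervals that fell in lola was 0.449% in replicate 1 (95% Wilson interval 0.284 to 0.709), 0.130% in replicate 2 (0.0978 to 0.173) and 0.212% in replicate 3 (0.144 to 0.313). The mean was 0.264% ± 0.166 (SD, n = 3), the eighth highest of 6502 genes (rank 8). In the separate libraries lola ranked 7 of 1459 bound genes, 25 of 6364 (tied with 1 other) and 13 of 3310 (tied with 3 others). Bound means holding at least 1 interval, and 20.9% of the 6502 genes were bound in all 3 libraries, as lola was. The lola intervals numbered 9, 15.7 and 12.5 times the median of the bound genes in replicates 1, 2 and 3. Replicate 2 had 2.61 times the lola intervals of replicate 1 and 9.02 times its intervals in all. Replicate 3 had 1.39 times the lola intervals of replicate 1 and 2.94 times its intervals in all. The share of lola was therefore largest in the library with fewest intervals. The Wilson intervals cover counting error only, and the depth in reads is unknown.

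**Figure D1:**
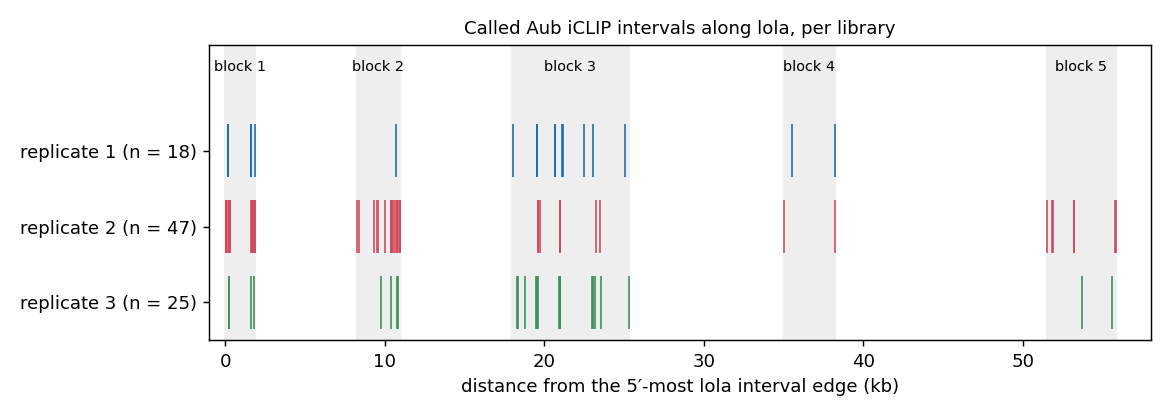
Called intervals of lola in replicates 1 (n = 18), 2 (n = 47) and 3 (n = 25), each drawn as a line at its midpoint, against the distance in kb from the 5′-most interval edge. Grey bands are the 5 blocks separated by gaps of 6359 to 13304 nt with no lola interval in any library.

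The intervals were not spread evenly along the gene. They fell in 5 blocks separated by stretches of 6359, 7039, 9705 and 13304 nt, counted from the 5′ end, in which no library had a lola interval. The longest empty stretch inside a block was 2647 nt. All distances are in genomic nt, and how the blocks and gaps relate to the exons of lola was not analysed here. The split at gaps of over 5 kb was made after the positions had been seen, and the blocks receive no test. Intervals covered 1417 nt in any library, 2.54% of the span.

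Block 1, at the 5′ end, ran from 6430744 to 6428858 and was 1887 nt long. Replicate 1 had 5 intervals there, replicate 2 had 14 and replicate 3 had 4. These were 27.8%, 29.8% and 16% of the lola intervals of the libraries, a mean of 24.5% ± 7.45 (SD, n = 3). Replicate 3 had the lowest share. With 4 to 14 intervals per library the Wilson intervals were wide (12.5 to 50.9, 18.7 to 44.0 and 6.40 to 34.7). At 12.2 intervals per kb it was the most densely filled of the 5 blocks.

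Block 2, from 6422498 to 6419793, held 1, 17 and 4 intervals, or 5.56%, 36.2% and 16% of the lola intervals of replicates 1, 2 and 3. Its density was 8.13 intervals per kb. Here replicate 2 stood above the others, with a Wilson interval of 24.0 to 50.5, against 0.988 to 25.8 in replicate 1 and 6.40 to 34.7 in replicate 3.

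Block 3 lay between 6412753 and 6405455, and replicate 1 had 10 intervals in it, replicate 2 had 7 and replicate 3 had 15. In replicates 1 and 3 it held more intervals than any other block and took 55.6% (95% Wilson interval 33.7 to 75.4) and 60% (40.7 to 76.6) of the lola intervals. In replicate 2 it took 14.9% (7.41 to 27.7). The block was delimited with these counts in view, so the Wilson intervals show counting error and are no test of a difference between the libraries. The mean was 43.5% ± 24.9 (SD, n = 3), and 57.8% without replicate 2. Replicate 2 thus had the fewest intervals of the 3 libraries in this block although it had the most in the whole gene. Its density over all libraries was 4.38 intervals per kb.

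Blocks 4 and 5, at the 3′ side, were sparse. Block 4, from 6395749 to 6392512, held 2, 2 and 0 intervals, and block 5, from 6379207 to 6374929, held 0, 7 and 2. Together they took 11.1%, 19.1% and 8% of the lola intervals of replicates 1, 2 and 3, with overlapping Wilson intervals. No block at this side had intervals in every library.

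**Figure D2:**
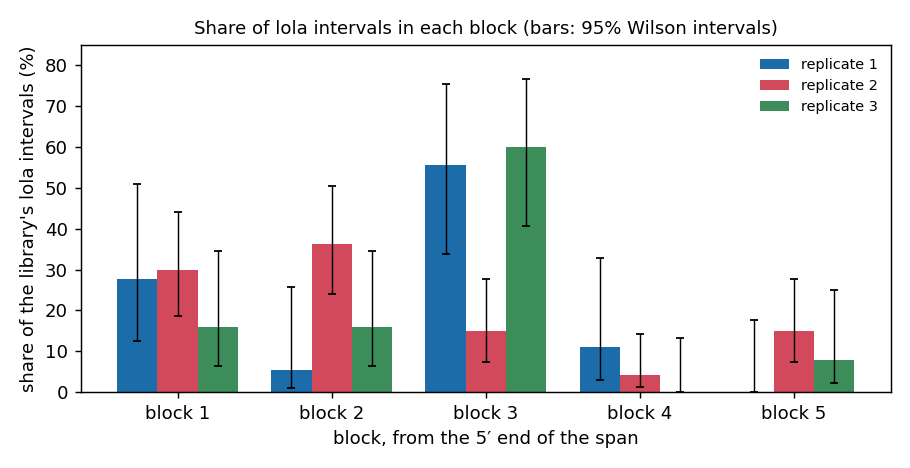
Share of each library's lola intervals, in percent, in the 5 blocks numbered from the 5′ end, with 95% Wilson intervals as error bars. Block 3 took 55.6% in replicate 1 and 60% in replicate 3 but 14.9% in replicate 2, while block 1 took 16% to 29.8% in the 3 libraries.

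Set together, blocks 1 and 2 took 33.3% of the lola intervals in replicate 1 (16.3 to 56.3), 66.0% in replicate 2 (51.7 to 77.8) and 32% in replicate 3 (17.2 to 51.6). Replicates 1 and 3 had similar shares and replicate 2 lay above both. As a share of all intervals of the library, blocks 1 and 2 took 0.150%, 0.0857% and 0.0678%, against 0.250%, 0.0194% and 0.127% for block 3. Neighbouring intervals of 1 library were often only a few nt apart, and joining those within 10 nt left 14, 34 and 23 intervals. After joining, block 3 held 57.1%, 14.7% and 60.9% of them. The contrast between replicate 2 and the others was thus as large when closely spaced intervals were counted once.

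The profiles of the 3 libraries over 10 equal parts of the span were compared by the percentage of intervals that would have to be moved to make 2 profiles equal. For lola this was 47.5% between replicates 1 and 2, 22.9% between replicates 1 and 3 and 45.1% between replicates 2 and 3. The same measure was taken for the 124 genes, lola included, with at least 20 intervals in replicate 2 and at least 5 in each of the others. Their medians were 35.7%, 31.5% and 27.4% for these pairs. For replicates 2 and 3, 13 genes had a larger value than lola and 110 a smaller one. For replicates 1 and 2, 34 were larger and 89 smaller, and for replicates 1 and 3, 83 were larger and 40 smaller. The distance grows where intervals are few, and genes are not replicates, so these ranks are a description.

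Most lola intervals lay in the 5′ part of the span. On the 5′ side of its midpoint, from position 6402837 upward, were 16 of 18 intervals in replicate 1 (88.9%, 95% Wilson interval 67.2 to 96.9), 38 of 47 in replicate 2 (80.9%, 67.5 to 89.6) and 23 of 25 in replicate 3 (92%, 75.03 to 97.8). The mean was 87.3% ± 5.75 (SD, n = 3). Over the same 124 genes, each with its own span, the median share on the 5′ side was 39.8%, with quartiles of 24.8% and 56.97%. Only 2 of these genes had a higher share than lola. The midpoint is that of the intervals on the genome and not of a transcript. The exon layout of lola and of the other genes was not analysed here. Along the span lola was longer than most, with 37 of the 124 genes longer and a median of 32808 nt. Its 1.61 intervals per kb were close to the median of 1.84.

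**Figure D3:**
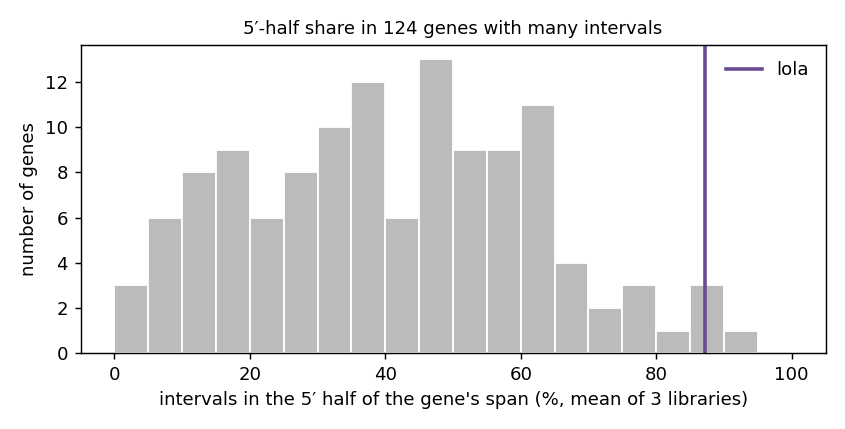
Number of genes by the share of their intervals, in percent, on the 5′ side of the midpoint of their span (mean of 3 libraries), for 124 genes with at least 20, 5 and 5 intervals in replicates 2, 1 and 3. The line marks lola at 87.3%, with 2 genes above it and the median at 39.8%.

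The mean position of the intervals, from 0% at the 5′ end to 100% at the 3′ end, was 29.97% in replicate 1, 29.7% in replicate 2 and 33.7% in replicate 3, and the medians were 36%, 18.7% and 35.1%. The means were close because replicate 2 had more intervals than the others at both ends and fewer in block 3. Replicate 2 minus the mean of the others was -2.15 percentage points for lola, against a median of 6.20 over the 124 genes. The mean of replicate 2 was nearer the 5′ end than both others in 19.4% of the 124 genes, lola among them. For lola the means of replicates 1 and 2 were nearly equal, so this order carries no weight.

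The order of rows in the files gave a finer division. Intervals of plus-strand genes were listed in rising position in all 20225 steps between neighbouring rows of a gene. For minus-strand genes a new run of rows was begun at each upward step in position, so positions fall within a run by definition. Where runs of different libraries overlapped they were joined into segments, and in 0 of 10523 cases over all minus-strand genes did a segment hold more than 1 run of a library. Segments with intervals of 1 library only are among these cases and say nothing on agreement between libraries. Where libraries met in a segment, their rows thus carried the same division, whose meaning is not given in the sources used here. For lola it gave 23 segments, a number that may be too high, since runs of different libraries that do not overlap stay apart. Intervals of all 3 libraries were found in 6 of the 23, and 8.27% of the segments of all minus-strand genes had intervals in all 3. That share includes genes with few intervals, so it is no matched background for a gene chosen for its many.

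These 6 segments lay in blocks 1, 2 and 3. In block 1 the segment from 6430744 to 6430443 held 2 intervals of replicate 1, 7 of replicate 2 and 2 of replicate 3, and that from 6429167 to 6428858 held 3, 7 and 2. Together they hold every interval of block 1, with no interval in the stretch between them. In block 2 the segment from 6420391 to 6419793 held 1, 11 and 3 intervals, and it was the segment of lola with most intervals in replicate 2. The other 4 segments of block 2 had intervals in 1 library each. In block 3 the segment from 6411994 to 6411025 held 2, 3 and 4 intervals, that from 6410084 to 6409565 held 4, 2 and 4, and that from 6408282 to 6407167 held 2, 2 and 4. The other 17 segments of lola had intervals in a single library.

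Recurrence of positions was measured by asking whether an interval of 1 library had an interval of another within 10 nt on the same strand. Of the 18 lola intervals of replicate 1, 7 had one of replicate 2 this close (38.9%, 95% Wilson interval 20.3 to 61.4), and over all intervals of replicate 1 this was 59.9%. In replicate 3, 3 of the 18 had one (16.7%, 5.84 to 39.2), and 33.0% over all intervals. Of the 25 lola intervals of replicate 3, 10 lay within 10 nt of one of replicate 2 (40%, 23.4 to 59.3), and 46.6% of all intervals did. These 3 shares, in which the library searched was always the larger, averaged 31.9% ± 13.2 for lola and 46.5% ± 13.4 for all intervals (SD, n = 3 pairs, which share libraries). The share of lola was the lower one each time, but each Wilson interval included the value of the whole library, so a difference was not detectable with so few intervals.

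In the other directions the values were 14.9% of the lola intervals of replicate 2 in replicate 1 (7.60% over all), 23.4% of them in replicate 3 (17.0% over all) and 8% of those of replicate 3 in replicate 1 (12.0% over all). Among genes with at least 20 intervals in replicate 2 and 5 or more in replicate 1, 13 of 127 had a smaller share than lola for replicate 1 in replicate 2, where their median was 71.4%. Pooled over their intervals, the other genes with at least 20 in replicate 2 had a share inside the Wilson interval of lola in 5 of the 6 directions. The exception was replicate 1 in replicate 2, where the upper limit for lola was 61.4 and the pooled share 67.8%. For replicate 3 in replicate 2, 49 of 257 genes had a smaller share and the median was 60%. The order turned for the intervals of replicate 2, where lola lay above the median. For replicate 2 in replicate 1, 200 of 297 genes had a smaller share (median 10.3%), and for replicate 2 in replicate 3, 177 of 297 did (median 20%).

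**Figure D4:**
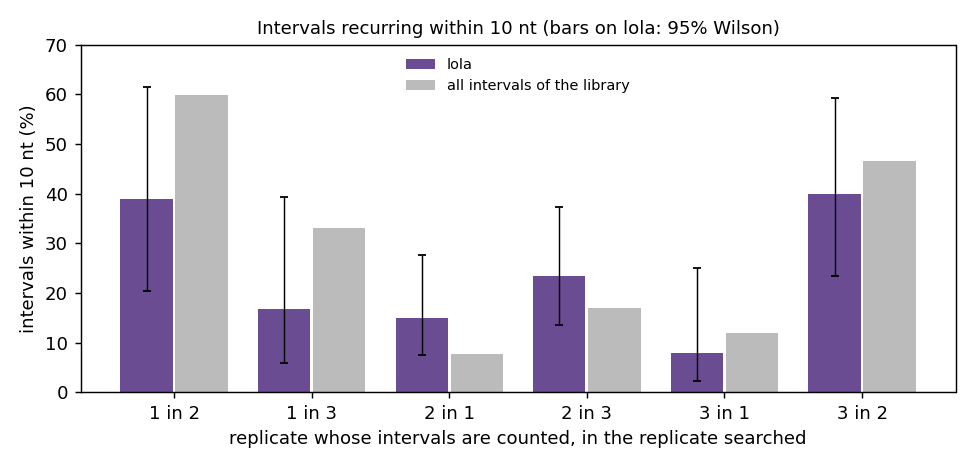
Percentage of intervals of 1 replicate with an interval of another within 10 nt, for lola (with 95% Wilson intervals) and for all intervals of the library. lola lay below the library in 4 of 6 directions, and the library's value lay inside the Wilson interval of lola in all 6.

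Recurrence was also counted per block, as intervals within 10 nt of any other library. Over the whole gene these were 8 of 18, 16 of 47 and 11 of 25 intervals in replicates 1, 2 and 3. The same share over the intervals of all genes was not analysed here, so the block counts have no background beside them. Within lola the counts differed between blocks. In block 1, 16 of 23 intervals lay within 10 nt of another library, among them all 5 of replicate 1 and all 4 of replicate 3. In block 2 these were 8 of 22, in block 3 9 of 32, in block 4 2 of 4 and in block 5 0 of 9. In block 3, 1 of 10 intervals of replicate 1, 4 of 7 of replicate 2 and 4 of 15 of replicate 3 lay this close to another library. Replicates 1 and 3 thus both placed most of their intervals in block 3, but mostly not at the same positions. This is not particular to block 3. Over all genes, 33.0% of the intervals of replicate 1 lay within 10 nt of one of replicate 3. In the other direction it was 12.0%. Block 1 was also the most crowded block, with 12.2 intervals per kb against 4.38 in block 3, and the part of crowding in this was not tested. It also held all 4 lola intervals of 50 nt or wider, which were of replicate 2. The part of interval width in this recurrence was not tested either.

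Joined within 50 nt, the 90 intervals formed 42 clusters, of which 4 had intervals in all 3 libraries. Over all genes 4.69% of 26114 clusters did, a share that includes genes with few intervals and is not matched to lola. Of the 4 clusters, 3 lay in block 1. The first lay between 6430621 and 6430443 with 2 intervals of replicate 1, 4 of replicate 2 and 2 of replicate 3. The second, from 6429167 to 6429079, held 2, 3 and 1, and the third, from 6429012 to 6428858, held 1, 4 and 1. The fourth lay in block 3, from 6411257 to 6411115, with 2, 2 and 3 intervals, and it had the highest mean share of a library's intervals of all lola clusters (0.0270%). The first and second followed with 0.0260% and 0.0222%. In this mean an interval weighs most in replicate 1, the library with fewest intervals. By number of intervals the first cluster led with 8, against 7 in the fourth. Within the cluster of block 3 the libraries lay side by side more than on top of each other, and the 4 clusters shared no nucleotide of all 3 libraries except for the second.

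A single stretch of 24 nt, from 6429136 to 6429113, was covered in every library. In replicate 1 the interval there ran from 6429136 to 6429112 and in replicate 3 from 6429136 to 6429113, so that both shared the 5′ edge to the nucleotide. In replicate 2 a wider interval, from 6429167 to 6429105, contained both. A further 157 nt of lola were covered in 2 libraries and 1236 nt in 1. The other exact edge shared by 2 libraries was a 3′ edge at 6411130, in replicates 2 and 3. Covered nucleotides and shared edges were counted for lola only, so how they compare with other genes was not analysed here. The files hold no reads, so whether these edges mark crosslinked nucleotides was not analysed here.

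**Figure D5:**
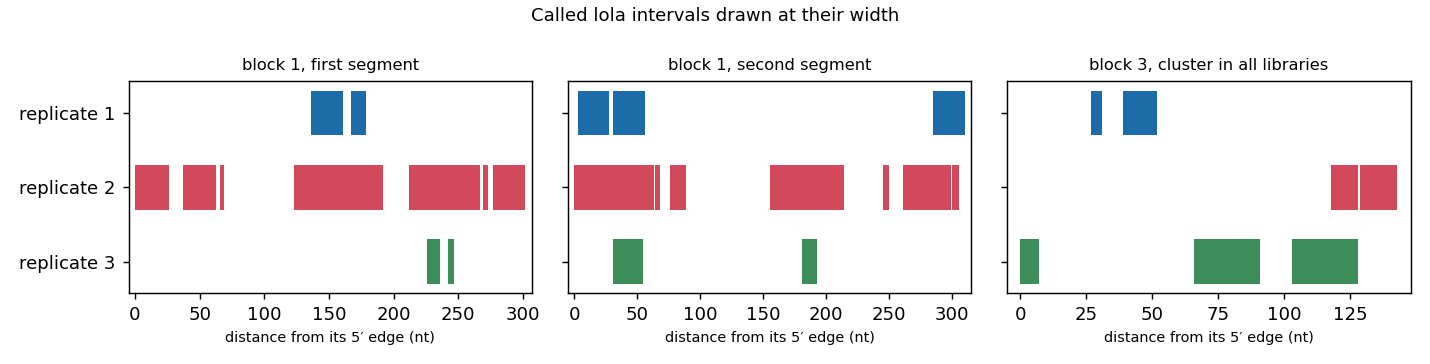
Called lola intervals drawn at their width in replicates 1, 2 and 3, for the 2 segments of block 1 and for the cluster of block 3 with intervals in all libraries, against the distance in nt from the 5′ edge of each. The stretch of 24 nt covered in all 3 libraries lies near the 5′ edge of the second segment, and in the cluster of block 3 the libraries lie mostly side by side.

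The lola intervals were 20.6, 17.6 and 17.1 nt wide on average in replicates 1, 2 and 3, a mean of 18.4 ± 1.89 nt (SD, n = 3). All other intervals were 21.2, 17.9 and 20.1 nt wide, a mean of 19.7 ± 1.67 nt. The lola mean was thus the lower one in each library, by little in replicates 1 and 2. The medians of lola and of the other intervals were equal in replicate 1 (25 nt) and replicate 2 (13 nt). In replicate 3 they were 19 and 25 nt. The difference was not tested. A width of exactly 25 nt was found for 11 of 18, 3 of 47 and 9 of 25 lola intervals, or 61.1%, 6.38% and 36%. For all other intervals the values were 52.0%, 9.003% and 47.5%. Intervals of 50 nt or wider numbered 4, of 55 to 69 nt. All 4 were in replicate 2 and in block 1. Of the intervals outside lola, 5.37% were this wide in replicate 2, 0.677% in replicate 1 and 0.798% in replicate 3, so wide intervals were mostly found in replicate 2 in other genes too. In the other libraries no lola interval was wider than 25 nt.

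The genes whose shares of intervals over the 3 libraries were nearest to those of lola, by the Euclidean distance of log2 shares over the 1361 genes bound in all 3, were FBgn0262614 on 3R (20, 37 and 26 intervals in replicates 1, 2 and 3, distance 0.38), FBgn0001624 on X (15, 38 and 20, distance 0.52), FBgn0086902 on 2L (13, 41 and 21, distance 0.57), FBgn0010300 on 2L (13, 49 and 20, distance 0.57) and FBgn0016977 on 2L (13, 58 and 28, distance 0.58). With 3 libraries the measure mostly reflects a like number of intervals. Of 15 BTB-domain transcription factor genes listed for comparison, among them mod(mdg4), which is also known for alternative 3′ exons joined to a common 5′ part, 0 could be paired with an ID of the files, and their intervals were not analysed here. No lola position was assigned to a second gene.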

How the data were processed

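The authors deposited, for each of 3 iCLIP libraries, a BED file of intervals (position, strand and the ID of a gene). The tools named in the submitters' processing notes are TopHat2 2.0.13 and CASAVA 1.4, and the build is dm3. Which caller, threshold and annotation were applied, and whether the 5-nt random barcode was used, is not given in the sources used here. In each file the authors' score is 0 in every row, so intervals have no height or p-value. Each library has a list of its own, and positions differ between the lists.

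Rows with the lola ID were taken as deposited. An interval counted as shared when the gap to an interval of the other library was at most 10 nt on the same strand. Clusters joined intervals of all libraries within 50 nt. The 95% Wilson limits of a share assume that intervals are independent. No test between groups was possible with 1 group. The gene, lists and comparisons were chosen with earlier results of these data known, and blocks, segments, joined intervals and profile distances after the positions had been seen. Named items were the clusters found in all libraries, the 3 clusters with the highest mean share, and the 5 genes nearest in log2 share. The work was done in Python 3.11.15 with scipy 1.17.1, pandas 2.3.3, matplotlib 3.10.9 and numpy 2.4.6. The interval search and the segments were tested on simulated data.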

Additional observations from a re-analysis of the deposited data

How the results depend on the processing

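Of 37 alternative values for 6 results, 31 moved by less than the spread between libraries or, for counts, by at most 1.5 times. The mean share of lola intervals within 10 nt of another library, 31.9%, was 1.85% with an exact shared 5′ edge and ranged between 16.7% and 40% when 1 library was dropped, with the lowest value without replicate 2. The 4 clusters found in every library became 1 when joined within 10 nt, 2 where every library had to have 2 or more intervals there, and 11 where 2 of 3 libraries sufficed. Dropping 1 library gave 4 to 8, with the highest value without replicate 1. The segments of the row order gave 6. These counts change by construction with the distance and the number of libraries asked for. Leaving out 1 of 3 libraries cannot move a mean over libraries by 1 SD, so it says nothing about the stability of the shares. The mean share in lola, 0.264%, was 0.171% without replicate 1 and 0.331% without replicate 2. The share 5′ of the midpoint ranged from 82.7% to 90.4% over its alternatives. The share of block 3, 43.5%, was 57.8% without replicate 2 and 35.2% without replicate 3. Alternatives for block 3 and the segments were chosen after seeing the data. No paired analysis was possible because the libraries form 1 group. A library's 18 to 47 lola intervals limit what can be told apart.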

Other observations

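Within the span of lola a second gene of the same strand, FBgn0263481, had 2 intervals, both in replicate 2 and between 6424332 and 6424313, in the stretch between blocks 1 and 2 where lola itself had none. Replicates 1 and 3 had 0 there. The gene was named because it lies in the span, after its values were seen. Joining intervals of 1 library within 10 nt left 77.8%, 72.3% and 92% of the lola intervals of replicates 1, 2 and 3, and 94.5%, 74.7% and 92.5% of all intervals of those libraries.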
